A study of Bos taurus with 6 samples.

Results

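The miR-200 family is a group of 5 epithelial microRNAs (miRNAs), bta-miR-200a, bta-miR-200b, bta-miR-429, bta-miR-200c and bta-miR-141. They were taken by name from the miRNA tables of bovine liver, and all 5 were among the 1030 mature miRNAs listed in each table and among the 456 that were detected. Liver was collected from Wye Angus steers of a closed herd at market weight, 3 grass-fed at 21 months of age and 3 grain-fed at 14 months, and 1 small RNA library was made per animal. The grass-fed diet was mainly alfalfa, hay or pasture grass, and the grain-fed diet was mainly corn silage, shelled corn, soybean and minerals. Age and diet separated the animals in the same way, so their effects cannot be told apart. The tissue was taken from the left lobe of the liver with its cell types mixed, so fewer cells of a type and less RNA per cell cannot be told apart.

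The libraries held between 3824592 and 6133960 miRNA counts in grass-fed and between 464875 and 892929 in grain-fed liver, each mature miRNA being counted once. The least deep grass-fed library held 4.28 times the counts of the deepest grain-fed library, so depth cannot be told apart from diet and age either. Depth here means these miRNA counts and not the reads sequenced. The paper gives raw read totals of like size for the groups, with fewer clean reads and a lower mapped share in the grain-fed group. What lay behind the gap in miRNA counts was not tested. Animals and their libraries carry the replicate numbers of the sample labels. A level is given here as CPM (counts scaled to a common library total) after TMM scaling, which sets the libraries to a common scale by a trimmed mean of their ratios. A count of 0 allowed up to 0.787 CPM in a grass-fed and up to 5.32 CPM in a grain-fed library, taking 3 counts as the floor. Intervals and floors cover counting error only. bta-miR-122, the defining miRNA of hepatocytes, averaged 345228 CPM in grass-fed and 159287 CPM in grain-fed liver. Grain-fed replicates 1 and 2 also carried pancreatic miRNAs that were at 0 in grain-fed replicate 3, and results with and without these libraries are given with the cell type markers.

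The family is known as a guard of the epithelial state. Its members repress ZEB1 and ZEB2, transcription factors that silence E-cadherin, and these factors in turn repress the genes of the family, so that epithelial cells have the miRNAs and mesenchymal cells have little of them. In liver the family is best known from the epithelium of the bile ducts, while hepatocytes carry less of it. The mature miRNAs fall into groups by seed, the bases near the 5′ end that pair with a target mRNA. bta-miR-200a and bta-miR-141 have one seed, and bta-miR-200b, bta-miR-200c and bta-miR-429 have another that differs from it by a single base.

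The members come from separate loci. The authors mapped to the assembly ARS-UCD1.2, and the gene neighbours given here come from RefSeq on the later assembly ARS-UCD2.0. There MIR429, MIR200A and MIR200B are neighbours on chromosome 16 and lie between the protein-coding genes TTLL10 and C16H1orf159. MIR141 and MIR200C are neighbours on chromosome 5 between PHB2 and PTPN6, where both overlap the lncRNA LOC112446758. Each mature miRNA of the family had a single precursor in the tables, so that no count was repeated over precursors. The members of a seed group are close in sequence over their whole length. The number of mismatches allowed in counting is not given in the sources used here, and a transfer of reads between such members was not tested.

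The family as a whole was a small part of the liver miRNAs in both groups. It took 0.0592% ± 0.00199 (SD, n = 3) of the miRNA counts in grass-fed and 0.0651% ± 0.0142 (SD, n = 3) in grain-fed liver. The summed level was 609, 880 and 599 CPM for grass-fed animals 1 to 3 and 704, 545 and 442 CPM for grain-fed animals 1 to 3. The ranges of the groups overlapped. Within this total the members did not move together. In grass-fed liver bta-miR-141 was lower and bta-miR-200b higher than in grain-fed liver, and the other members did not pass the test.

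**Figure D1:**
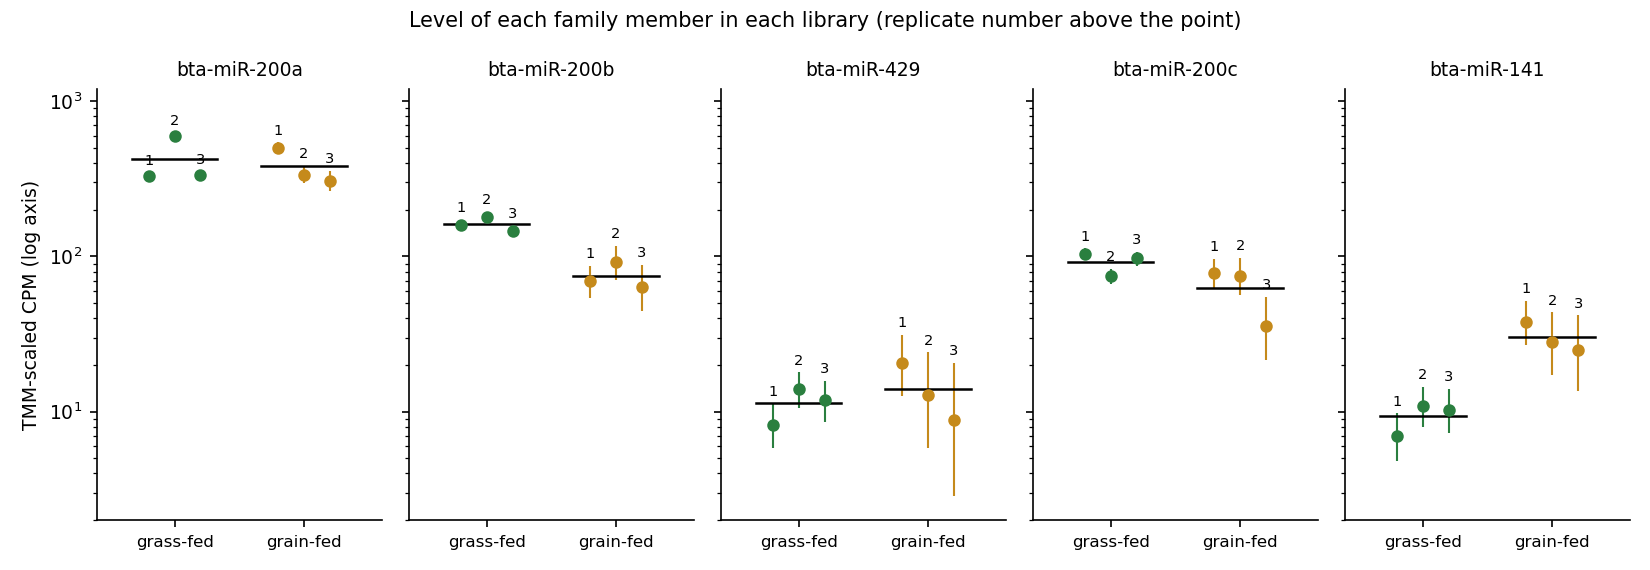
Level of each family member in each library, in TMM-scaled CPM on a log axis, with grass-fed libraries in green, grain-fed libraries in ochre, the replicate number above each point, bars for the exact 95% Poisson interval of the count and a black line for the group mean. The grass-fed and grain-fed points stand apart for bta-miR-200b and bta-miR-141 and overlap for the other members.

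bta-miR-200a was the most abundant member in all 6 libraries and bta-miR-200b came second in 5 of them. By mean CPM over the 6 libraries bta-miR-200a had place 84 among the 456 detected miRNAs, bta-miR-200b place 125, bta-miR-200c place 145, bta-miR-141 place 214 and bta-miR-429 place 241. bta-miR-200a was above bta-miR-200b in each library by more than counting error. bta-miR-200b was above bta-miR-200c in all 3 grass-fed libraries but in 2 of the 3 grain-fed libraries. In 2 grain-fed libraries these members did not differ beyond counting error. The lowest places changed with the diet. bta-miR-429 had slightly more counts than bta-miR-141 in the 3 grass-fed libraries, a difference within counting error in each, and fewer counts than bta-miR-141 in the 3 grain-fed libraries, beyond counting error in grain-fed replicate 1 alone. Levels of different miRNAs also depend on how well each is ligated into a library, which was not measured.

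In the cluster of bta-miR-200a, bta-miR-200b and bta-miR-429, a single member differed between the diets. bta-miR-200b, which carries the seed shared with bta-miR-200c, had 160, 180 and 145 CPM for grass-fed animals 1 to 3, from 759, 764 and 553 counts. It had 69.2, 92.0 and 63.9 CPM for grain-fed animals 1 to 3, from 71, 65 and 36 counts. Every grass-fed library was above every grain-fed library, and the lowest grass-fed level was 1.58 times the highest grain-fed level. Grass-fed liver averaged 162 ± 17.5 and grain-fed liver 75.0 ± 15.0 CPM (SD, n = 3 each). The log2 fold change was 1.11 (standard error 0.25, 95% interval 0.57 to 1.64, FDR = 0.00886 from the edgeR quasi-likelihood test over all detected miRNAs).

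bta-miR-200a, the leading member, had 331, 601 and 335 CPM for grass-fed animals 1 to 3 and 499, 337 and 309 CPM for grain-fed animals 1 to 3. Grass-fed replicate 2 and grain-fed replicate 1 were high in their groups, and the groups overlapped. The high value of grass-fed replicate 2 comes with the smallest TMM factor, 0.692. Scaled by the total count alone, grass-fed replicates 1 to 3 were at 310, 416 and 333 CPM, so replicate 2 was still the highest of its group. The log2 fold change of 0.14 (standard error 0.29, 95% interval -0.49 to 0.77, FDR = 0.819, edgeR) turned to -0.33 when total counts alone scaled the libraries, and to -0.22 without grass-fed replicate 2, so no direction is given for this miRNA.

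bta-miR-429 was the least abundant member by mean CPM. It had 8.21, 13.9 and 11.8 CPM for grass-fed animals 1 to 3, from 39, 59 and 45 counts, and 20.5, 12.7 and 8.87 CPM for grain-fed animals 1 to 3, from 21, 9 and 5 counts. The groups overlapped, with grain-fed replicate 1 highest and grass-fed replicate 1 lowest. No difference was detectable at this depth. The log2 fold change came to -0.41 (standard error 0.40, 95% interval -1.28 to 0.46, FDR = 0.585, edgeR).

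In the other cluster bta-miR-141 was lower in grass-fed liver and its neighbour bta-miR-200c did not pass the test. bta-miR-141, which has the seed of bta-miR-200a, had 6.95, 10.8 and 10.2 CPM for grass-fed animals 1 to 3, from 33, 46 and 39 counts. It had 38.0, 28.3 and 24.8 CPM for grain-fed animals 1 to 3, from 39, 20 and 14 counts. The lowest grain-fed level was 2.29 times the highest grass-fed level, although the raw counts of the groups were of like size. The exact 95% Poisson interval of that lowest grain-fed level ran from 13.6 to 41.7 CPM and that of the highest grass-fed level from 7.94 to 14.5 CPM. The log2 fold change was -1.75 (standard error 0.33, 95% interval -2.46 to -1.03, FDR = 0.00293, edgeR), or 3.35-fold lower in grass-fed liver.

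bta-miR-200c had 103, 74.7 and 97.1 CPM for grass-fed animals 1 to 3 and 77.9, 75.0 and 35.5 CPM for grain-fed animals 1 to 3. Grain-fed replicate 3 was low, with 20 counts, and grass-fed replicate 2 was just below the other grain-fed libraries. Grass-fed liver averaged 91.7 ± 15.0 and grain-fed liver 62.8 ± 23.7 CPM (SD, n = 3 each). The log2 fold change was 0.50 (standard error 0.30, 95% interval -0.14 to 1.15, FDR = 0.304, edgeR).

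Of the 5 members, 2 passed FDR 0.1, 1 of them higher and 1 lower in grass-fed liver. Among all 456 detected miRNAs 19.1% passed, with 9.43% higher and 9.65% lower. For the same 2 members the grass-fed and grain-fed CPM were fully apart, as they were for 32.9% of all detected miRNAs. With 5 members, these counts are too small to set the family apart from the other miRNAs. An exact two-sided permutation test of 3 animals against 3 cannot give a p below 0.1, and no such test is given for single members.

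The make-up of the family within a library does not depend on how libraries are scaled. bta-miR-141 made up 1.14%, 1.23% and 1.71% of the counts of the family for grass-fed animals 1 to 3. It made up 5.39%, 5.19% and 5.62% for grain-fed animals 1 to 3. The highest exact 95% binomial limit in grass-fed liver was 2.33% and the lowest in grain-fed liver was 3.11%, so the intervals of the groups did not meet. bta-miR-200b made up between 20.4% and 26.2% in grass-fed and between 9.82% and 16.9% in grain-fed liver, again without overlap of the values. Between grass-fed replicate 2 and grain-fed replicate 2 the intervals of bta-miR-200b did meet, from 19.2% to 21.8% and from 13.3% to 21.0%, and that of grain-fed replicate 3, from 10.3% to 19.4%, also met the first. The share of bta-miR-200a lay between 54.4% and 68.3% in grass-fed and between 61.8% and 70.8% in grain-fed liver.

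**Figure D2:**
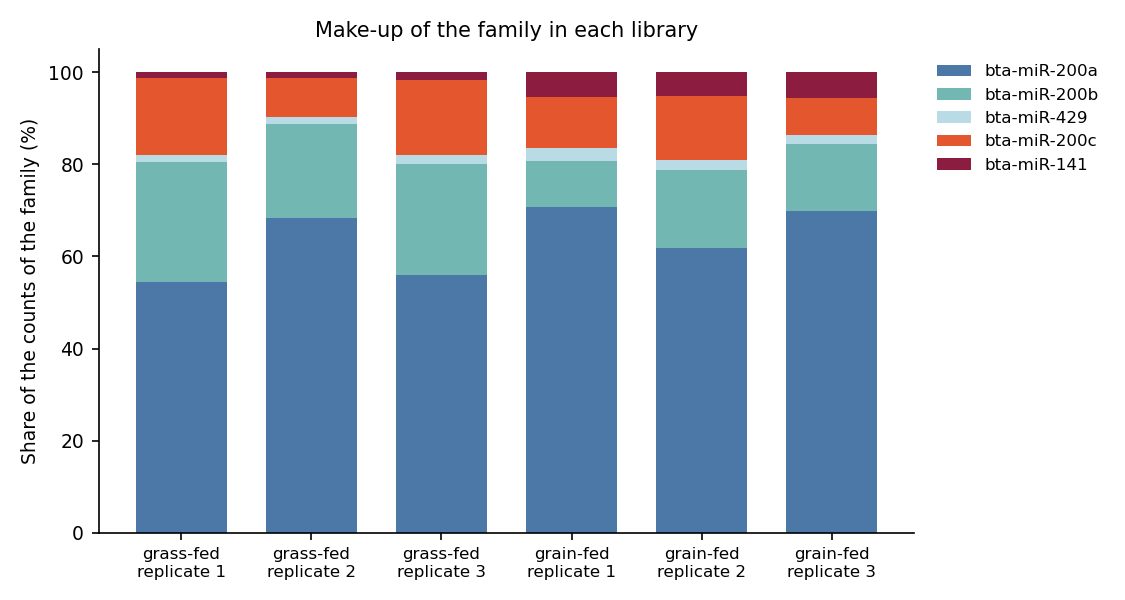
Share of the counts of the family (%) taken by each member in each library, stacked, with the bta-miR-200a, bta-miR-200b and bta-miR-429 cluster at the bottom and the bta-miR-200c and bta-miR-141 cluster on top. The dark red band of bta-miR-141 takes 1.14% to 1.71% in grass-fed and 5.19% to 5.62% in grain-fed libraries, while the boundary between the clusters lies in overlapping ranges.

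Set against each other by their summed counts, the clusters overlapped between the diets. bta-miR-200c and bta-miR-141 together held 18.1%, 9.72% and 17.9% of the family for grass-fed animals 1 to 3 and 16.5%, 19.0% and 13.7% for grain-fed animals 1 to 3. Grass-fed replicate 2 was lowest of all and the other libraries of both diets were mixed. The log2 ratio of the cluster of bta-miR-200c and bta-miR-141 to the other cluster was -2.53 ± 0.59 in grass-fed and -2.36 ± 0.28 in grain-fed liver (SD, n = 3 each), a difference of -0.17. The sums are set by bta-miR-200a and bta-miR-200c, which make up most of their clusters. With the mean of the members' log2 counts, which gives every member the same weight, the cluster log2 difference was -1.50, -2.01 and -1.39 for grass-fed animals 1 to 3 and -0.71, -0.68 and -0.92 for grain-fed animals 1 to 3. The groups did not overlap on that measure, and their means differed by -0.86.

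Within the clusters, 3 of the 4 pairs of members did not overlap between the diets, and bta-miR-200a against bta-miR-429 did. Each of the 3 held bta-miR-141 or bta-miR-200b, whose own levels did not overlap, so this count largely restates those levels. No share over pairs of all detected miRNAs was computed to set beside it. The log2 ratio of bta-miR-200c to bta-miR-141 was 3.87, 2.77 and 3.23 for grass-fed animals 1 to 3 and 1.03, 1.38 and 0.50 for grain-fed animals 1 to 3. All grass-fed libraries were above all grain-fed libraries, and the means differed by 2.32. The log2 ratio of bta-miR-200b to bta-miR-200a was -1.05, -1.74 and -1.20 for grass-fed animals 1 to 3 and -2.84, -1.86 and -2.26 for grain-fed animals 1 to 3. Here too the groups did not overlap, with a gap of 0.99 between the means and with replicate 2 of each diet nearest to the other group. Counting error covered that nearest step. The bta-miR-200b share of this pair had an exact 95% binomial interval of 21.6% to 24.5% in grass-fed replicate 2, which met those of grain-fed replicates 2 and 3, with upper limits of 26.5% and 22.9%.

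Members of one seed group but of different clusters were also compared. The log2 ratio of bta-miR-200a to bta-miR-141 was 5.55, 5.78 and 5.01 for grass-fed animals 1 to 3 and 3.70, 3.54 and 3.59 for grain-fed animals 1 to 3. The grain-fed values lay close together, all were below the grass-fed values, and the means differed by 1.84. The log2 ratio of bta-miR-200b to bta-miR-200c overlapped between the diets, at 0.83 ± 0.38 in grass-fed and 0.32 ± 0.50 in grain-fed liver (SD, n = 3 each). When all counts were summed by seed, the log2 ratio of bta-miR-200a and bta-miR-141 to the other members was 0.32, 1.19 and 0.44 for grass-fed animals 1 to 3 and 1.68, 1.02 and 1.62 for grain-fed animals 1 to 3, and the groups overlapped through replicate 2 of each.

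Over all 10 pairs of members, 6 had log2 ratios that did not overlap between the diets. bta-miR-200b against bta-miR-141 showed the widest gap, with means of 4.12 in grass-fed and 1.29 in grain-fed liver, 7.11-fold apart. Of the 6 pairs that held one of these miRNAs and not the other, 5 did not overlap, and of the 3 pairs that held neither, 0 stood apart. These are the members whose own levels did not overlap, so this pattern largely follows from those levels. Among pairs within a cluster, 3 of 4 did not overlap, and among pairs between clusters 3 of 6. The pairs share members and libraries and are not independent, and no test was made of the ratios. The share of pairs of all detected miRNAs that did not overlap was not computed.

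**Figure D3:**
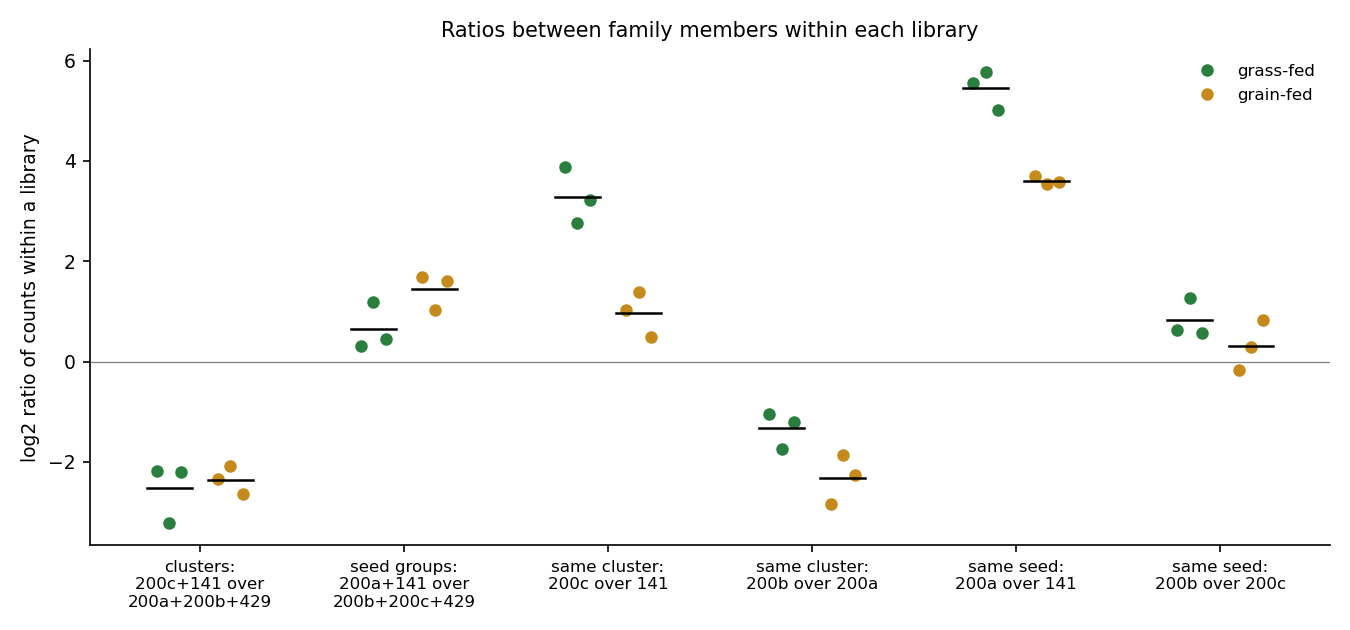
Log2 ratio of counts between members or groups of members within each library, with grass-fed libraries in green, grain-fed libraries in ochre and a black line for each group mean. The cluster sums and the seed sums overlap between the diets, while bta-miR-200c over bta-miR-141, bta-miR-200b over bta-miR-200a and bta-miR-200a over bta-miR-141 do not.

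The call of bta-miR-200b depended on the scaling and that of bta-miR-141 did not. With total counts alone, bta-miR-200b was at 0.69 on the log2 scale (FDR = 0.114, edgeR) and bta-miR-141 at -2.18 (FDR = 7.00e-04, edgeR). The scaling shifted all miRNAs at once and by nearly the same amount, so differences from the median stay nearly the same by construction. The median log2 fold change of all detected miRNAs was 0.13 after TMM scaling, -0.29 with total counts alone and 0.31 with upper-quartile scaling. Relative to that median, bta-miR-200b was at 0.97 after TMM scaling, 0.98 with total counts and 0.97 with upper-quartile scaling. bta-miR-141 was at -1.88, -1.89 and -1.88 in the same order. bta-miR-200c was at 0.37, 0.41 and 0.38, bta-miR-429 at -0.54, -0.56 and -0.55, and bta-miR-200a at 0.0032, -0.04 and -0.02.

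**Figure D4:**
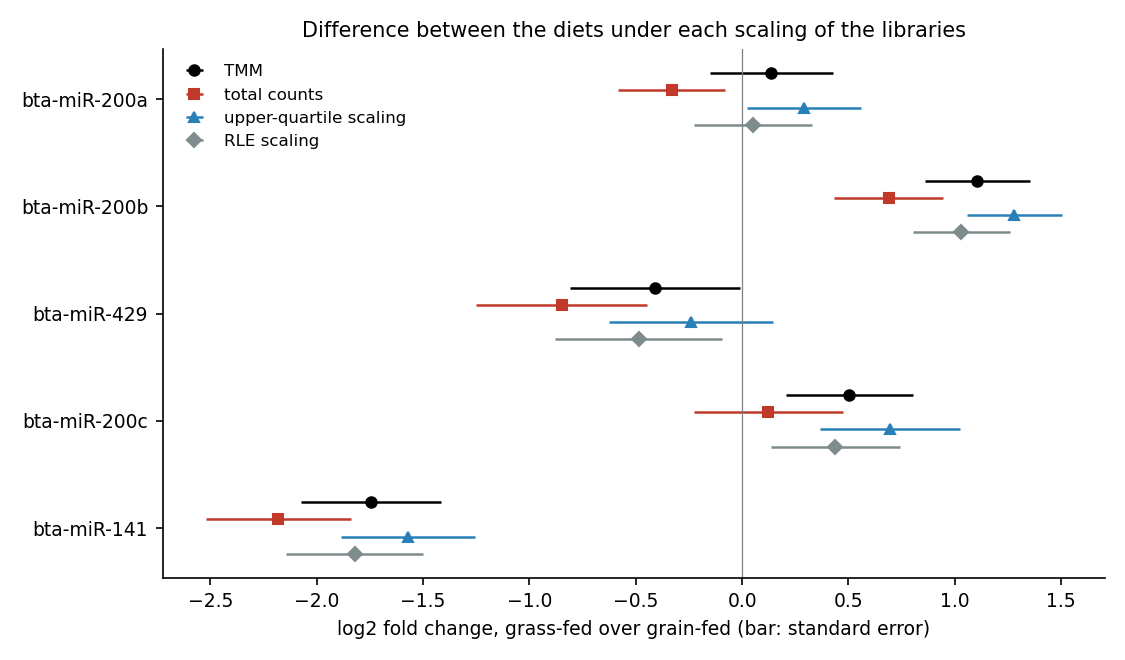
Log2 fold change of each member, grass-fed over grain-fed, under 4 scalings of the libraries, with bars for the standard error. The bta-miR-141 points lie between -2.18 and -1.57, the bta-miR-200b points between 0.69 and 1.28, and the bta-miR-200a points on both sides of 0.

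Other epithelial miRNAs were examined beside the family. Of 9 on the list, 6 were detected, and 0 of these passed FDR 0.1 in edgeR, with 0 also in DESeq2 and limma-voom and 0 at an unadjusted p under 0.05. Among all detected miRNAs 19.1% passed in edgeR. Their median log2 fold change was 0.14, beside 0.13 over all detected miRNAs, and turned to -0.28 with total counts alone, where that of all miRNAs was -0.29. bta-miR-31, an epithelial miRNA that is the most abundant of the list here, averaged 105 ± 15.6 CPM under grass and 117 ± 8.55 CPM under grain (SD, n = 3 each). bta-miR-182, bta-miR-183 and bta-miR-96 are another epithelial cluster made from one locus, and their log2 fold changes were 0.07, 0.04 and 0.60 (FDR = 0.925, 0.947 and 0.753, edgeR). The value of bta-miR-96 has a standard error of 0.92 and rests on 2, 2 and 0 counts for grain-fed animals 1 to 3. bta-miR-34c and bta-miR-449a, miRNAs of ciliated epithelium, had at most 14 and 9 counts in a library. bta-miR-34b had at most 2 counts, bta-miR-205 had 0 in every library, and bta-miR-203 was not analysed here under that name. The summed level of the list was 134 to 177 CPM in grass-fed and 140 to 183 CPM in grain-fed liver, so the groups overlapped.

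Markers of other cell types are given beside the family. Among all detected miRNAs 19.1% passed FDR 0.1, with 9.43% higher and 9.65% lower in grass-fed liver. Of the 6 mesenchymal miRNAs, 3 were higher in grass-fed liver, bta-miR-145, bta-miR-199a-3p and bta-miR-199a-5p, with log2 fold changes of 1.09, 0.62 and 0.61 (FDR = 0.00597, 0.0532 and 0.0516, edgeR). Their summed level was 80077 to 116241 CPM in grass-fed and 74026 to 86769 CPM in grain-fed liver, and their median log2 fold change was 0.47. With total counts alone bta-miR-145 was the one of the 6 called, and with upper-quartile scaling 5 were called, all higher in grass-fed liver. Over all 456 detected miRNAs, 9 were called higher with total counts alone and 82 with upper-quartile scaling. Of the 5 hepatocyte miRNAs 2 were called, bta-miR-122 and bta-miR-192, both higher in grass-fed liver. bta-miR-194, bta-miR-215 and bta-miR-885 were not called, with log2 fold changes of -0.43, -0.14 and 0.41. The median log2 fold change of the 5 was 0.41. Their summed level, most of it bta-miR-122, was 364873 to 546747 CPM in grass-fed against 192656 to 254893 CPM in grain-fed liver. With total counts alone bta-miR-192 was no longer called. Of the 5 leukocyte miRNAs 0 passed FDR 0.1 in edgeR, with a median of -0.51, 3 at an unadjusted p under 0.05, 1 call in DESeq2 and 2 with total counts alone. Of the 3 erythroid and 2 endothelial miRNAs 0 passed, with medians of -0.32 and 0.23 and 0 at an unadjusted p under 0.05, and with total counts alone 1 erythroid miRNA was called. The summed levels of leukocyte miRNAs were 743 to 993 CPM in grass-fed and 943 to 1132 CPM in grain-fed liver, those of erythroid miRNAs 419 to 643 and 465 to 665 CPM, and those of endothelial miRNAs 11449 to 16152 and 9476 to 14335 CPM. The part of these cell types in the family's values was not tested.

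Pancreatic miRNAs were raised in grain-fed replicates 1 and 2 and not in grain-fed replicate 3. Of the 4 on the list, 3 were lower in grass-fed liver, bta-miR-216a, bta-miR-216b and bta-miR-217, beside 9.65% of all detected miRNAs. The summed level was 32.3 to 36.0 CPM in grass-fed and 14.2 to 136 CPM in grain-fed liver. The groups overlapped, as did the CPM of each of the 4 miRNAs. bta-miR-375, an islet miRNA that did not pass (FDR = 0.280, edgeR), was at 14.2 CPM in grain-fed replicate 3, below the 31.0 to 35.0 CPM of the grass-fed libraries. The median of the list was -4.84 on the log2 scale, and the same number of its members was called under each of the other scalings, in DESeq2 and in limma-voom. bta-miR-217, a miRNA of pancreatic acinar cells, had 17, 31 and 0 counts for grain-fed animals 1 to 3 and 4, 1 and 4 for grass-fed animals 1 to 3. bta-miR-216a, bta-miR-216b and bta-miR-217 were all at 0 in grain-fed replicate 3. In that library bta-miR-141 stood at 24.8 CPM from 14 counts, above the level of every grass-fed library. Its exact Poisson interval, 13.6 to 41.7 CPM, met those of grass-fed replicates 2 and 3, with upper limits of 14.5 and 14.0 CPM. In the same library bta-miR-200b stood at 63.9 CPM, below every grass-fed library. Its interval, 44.7 to 88.4 CPM, lay below all grass-fed intervals. The part of pancreatic miRNAs or tissue in the family's values was not tested. With grain-fed replicates 1 and 2 left out together, bta-miR-141 was at -1.48 and bta-miR-200b at 1.27 on the log2 scale. Neither was then called (FDR = 0.320 and 0.160, edgeR), with 1 grain-fed library that was assumed to vary like the grass-fed group and with 28 calls over all miRNAs.

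Entries that overlap small nuclear or nucleolar RNAs also differed between the diets. This list was added after its values were seen. Of its 5 entries 4 were detected, of which 3 were lower and 1 higher in grass-fed liver. Among all detected miRNAs 9.65% were called lower and 9.43% higher. bta-miR-1246, which resembles a piece of the U2 small nuclear RNA, was at 23.3 to 93.2 CPM in grass-fed and 2684 to 5184 CPM in grain-fed liver (log2 fold change -6.05, FDR = 4.33e-06, edgeR). bta-miR-1248 and bta-miR-1291, both from small nucleolar RNA genes, were at -4.03 and -1.14 (FDR = 2.81e-06 and 0.0309, edgeR). bta-miR-664b, also of such origin, was at 1.03 (FDR = 0.0239, edgeR) and was no longer called with total counts alone. The summed level of the list was 149 to 235 CPM in grass-fed and 3130 to 5556 CPM in grain-fed liver. The paper states that RNA integrity was checked on a Bioanalyzer and lay above a given value. No integrity value per animal was available here. The part of RNA integrity and that of depth in the family's values were not tested.

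The closest profiles outside the family were sought over the 6 libraries among 255 miRNAs with a mean of at least 10 CPM. The measure was the root mean square difference of log2 CPM after each miRNA was centred on its own mean. bta-miR-200b was closest to bta-miR-320a and bta-miR-744, at 0.14 for each, and within the family it was closest to bta-miR-200c, at 0.44. bta-miR-200a was closest to bta-let-7i and bta-miR-505, at 0.13 and 0.14, and to bta-miR-429 within the family, at 0.30. bta-miR-429 was closest to bta-miR-34a and bta-miR-98, at 0.14 and 0.17. bta-miR-200c was closest to bta-miR-1271 and bta-miR-495, at 0.17 and 0.23. bta-miR-141 had no neighbour as near, with bta-miR-652 and bta-miR-1291 both at 0.33, and lay 1.18 from its cluster neighbour bta-miR-200c and 0.90 from its seed-mate bta-miR-200a. The profiles share the libraries and their depth, and a small distance says only that the levels varied alike. The closest profile outside the family was picked from 255 miRNAs and the closest within it from the few other members. The outside distance therefore tends to be the smaller by construction, and the distances cannot be compared as such.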

How the data were processed

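Small RNA of 18 to 30 bases from 6 livers was sequenced by the authors, who removed adapters, low-quality reads and reads outside a length range, mapped the remainder to ARS-UCD1.2 and used miRDeep2 to count the known miRNAs. Aligner settings: not given in the sources used here. FastQC 0.11.5 and Trimmomatic 0.36 are named in the submitters' processing notes. The deposited values are raw counts, one for each mature miRNA on each of its precursors. A CPM column was deposited beside them, each count divided by the library total, and was left unused. The largest count over precursors was taken.

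Detection needed more than 2 counts in 2 or more libraries. Detected miRNAs were tested with edgeR 4.0.16 (quasi-likelihood, TMM, Benjamini-Hochberg, FDR 0.1) in R 4.3.3. The standard error is the log2 fold change over the square root of F. Ratios within libraries had 0.5 added to each sum and no test. Counting intervals are exact, at 95%. DESeq2 1.42.0 and limma-voom 3.58.1, other scalings and filters, a replicate block and libraries left out were alternatives. The test was checked on simulated counts.

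The members, lists and tests were chosen with earlier results of these data known. The text names the members, the lists and the 2 closest profiles of each member. The lists were written from general knowledge, as were the seed groups, since no mature sequences were used here. The seed sums, the 10 pairs, the list of entries that overlap small nuclear or nucleolar RNAs and the fit without both grain-fed replicates 1 and 2 were chosen after the counts were seen. Same-numbered libraries did not deviate together, which with 3 libraries per diet does not exclude a pairing. Replicates of a diet differed by more than sampling noise.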

Additional observations from a re-analysis of the deposited data

How the results depend on the processing

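The number of members called was 2 in 16 of the 18 alternatives tried, including FDR 0.05, DESeq2, limma-voom, each library left out in turn and library sizes without bta-miR-122. It was 1 with total counts alone, where bta-miR-200b fell short at a log2 fold change of 0.69. It was 0 without both grain-fed replicates 1 and 2, where bta-miR-200b stood at 1.27 and bta-miR-141 at -1.48 with fewer samples. The log2 fold change of bta-miR-200a, never called, reversed to -0.33 with total counts and to -0.0092 with a minimum of 10 counts in 3 libraries, and ranged from -0.22 to 0.32 over the fits that omit a library. bta-miR-429, never called, reversed to 0.27 without both grain-fed replicates 1 and 2. bta-miR-200c, never called, was at 0.12 with total counts, 0.23 to 0.66 over the fits that omit a library and 1.32 without both grain-fed replicates 1 and 2. Leaving out each library gave -1.90 to -1.57 for bta-miR-141 and 0.98 to 1.19 for bta-miR-200b. The cluster log2 ratio moved to -0.86 with the mean of log2 counts, which gives bta-miR-141 more weight by construction, and ranged from -0.35 to 0.17 when libraries were omitted one by one, turning positive without grass-fed replicate 2. With the replicate block 2 members and 82 miRNAs were called. Same-numbered libraries correlated at -0.05, -0.20 and -0.01 in their deviations over miRNAs, within the -0.21 to 0.23 of differently numbered libraries. With 3 libraries per diet this can neither show nor exclude a pairing, and the labels do not say that the numbers pair animals. bta-miR-141 and bta-miR-429 rest on 5 to 39 counts in the grain-fed libraries, which limits their precision.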
